A study of Mus musculus with 9 samples.

Results

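Matrix metalloproteinases (MMPs) and their tissue inhibitors (TIMPs) were examined in sorted mouse hepatic stellate cells, through the transcripts Timp1, Timp2, Timp3, Mmp2, Mmp9, Mmp13 and Mmp14. These 7 genes were taken by name from a table of 35024 gene names, and all 7 were among the 17203 genes tested. The study compared stellate cells with and without deletion of Yap1, the transcriptional coactivator held back by the Hippo pathway. The YAP-deleted group comprised 4 libraries (LYT006, LYT008, LYT013 and LYT016) from YAP floxed mice that carry LratCre, and the control group comprised 5 libraries (LYT004, LYT005, LYT014, LYT015 and LYT017) from YAP floxed mice without it. All animals had a C57BL/6J background, and all had livers injured by carbon tetrachloride (CCl4), injected 6 times with 3 days between doses. The cells were collected 2 days after the last dose. The labels give no ages for the mice. The Lrat promoter, which drives the Cre, is active in stellate cells, and because the controls carry no Cre, loss of Yap1 and presence of Cre cannot be told apart. The cells were sorted on the autofluorescence of stored retinoids and lysed directly, and retinoid-poor cells were not selected. The labels do not name the mouse behind each library, and p-values therefore measure the spread between these libraries, which may in part be technical.

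MMPs are zinc-dependent proteinases that cut collagens and other matrix proteins, and most are made as inactive precursors. TIMPs bind the active site of MMPs and block it, so both bear on how fast scar matrix is removed. In injured liver, stellate cells are known as a main source of collagen, of the gelatinase Mmp2, of the membrane-bound collagenase Mmp14 and of Timp1. Mmp9, the other gelatinase, and Mmp13, the main interstitial collagenase of rodents, are known in liver largely from macrophages and neutrophils, and Mmp13 also from early activated stellate cells.

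Total counts per library ran from 14052502 to 31816055, and 16282 to 17341 genes lay above the lowest value of the table. Among libraries with the YAP-deleted label, LYT006, LYT008 and LYT016 had 644, 649.9 and 647 normalised Yap1 counts, but LYT013 had 2537. Among libraries with the control label, LYT004, LYT005, LYT015 and LYT017 had 2910.0, 2924, 3663 and 3561.5, but LYT014 had 619.7. LYT013 and LYT014 thus went against their labels, and results are given with all 9 libraries as labelled and with the 7 others. Stellate cell markers (12 of 12 tested, Lrat included) made up 2.46% to 3.96% of the counts, while portal fibroblast and mesothelial markers made up 0.0204% to 0.0658%. The lists for macrophages, endothelial cells, hepatocytes and neutrophils each made up at most 0.0222%. In bulk RNA of this kind, fewer cells of a type and less RNA per cell cannot be told apart.

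Timp1, Timp2, Timp3, Mmp2 and Mmp14 were abundant in every library, and Mmp9 and Mmp13 were at the edge of detection. On a scale of normalised counts per kilobase (kb) of the longest principal coding transcript, the order of mean levels over the 9 libraries was Mmp2, Timp2, Mmp14, Timp3, Timp1, Mmp9 and Mmp13. Mmp2 averaged 6699 ± 1746 per kb, Timp2 3574 ± 594, Mmp14 2931 ± 531, Timp3 1489 ± 319.5 and Timp1 527 ± 197 (SD, n = 9 libraries). Mmp9 averaged 1.40 ± 0.907 per kb and Mmp13 1.28 ± 1.02. Mmp2 (at least 4914 per kb) did not overlap with Timp2 (at most 4593), nor Mmp14 (at least 2321) with Timp3 (at most 1945), nor Timp3 (at least 945) with Timp1 (at most 798). Timp2 (2823 to 4593 per kb) and Mmp14 (2321 to 3797) overlapped, although Timp2 was the higher of the pair within every library except LYT006. Mmp9 and Mmp13 were within their spread of each other.

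**Figure D1:**
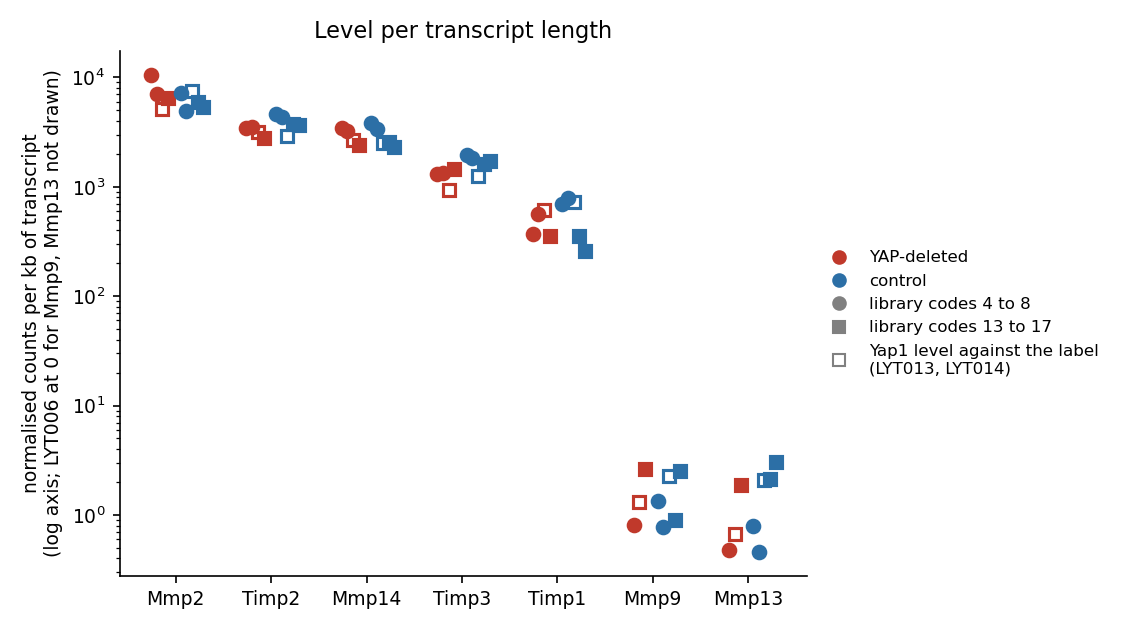
Normalised counts per kb of transcript (log axis) of the 7 genes in each library, ordered by mean level, with YAP-deleted libraries in red at the left and control libraries in blue at the right of each gene. Circles are library codes 4 to 8, squares codes 13 to 17, and open squares are LYT013 and LYT014, and the values of Mmp9 and Mmp13 in LYT006, which were 0, are not drawn. Timp1 stayed at 256 or more per kb in every library, while Mmp9 and Mmp13 stayed at 3.02 or less.

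Among libraries that followed their Yap1 label, the inhibitors Timp2 and Timp3 were lower in all 3 YAP-deleted libraries than in any of 4 controls. The ratios of means were 0.803 and 0.764, and 3.48% of all tested genes lay wholly below the controls in this comparison. By measured Yap1 level neither gene separated, since LYT013, high in Yap1, lay below the other Yap1-high libraries in both. Timp1 and the 4 proteinases overlapped between the groups, and 0 of the 7 members passed the adjusted test in either set of libraries (0.0% of all tested genes passed it with 9 libraries and 0.0698% with 7). Timp1 lies on chrX:20870166-20874735 (GRCm38, plus strand), within the bounds of Syn1, a gene on the opposite strand that has no exon inside Timp1 and had 7.56 to 28.1 normalised counts. Timp2 lies on chr11:118301069-118355740 (minus strand). Timp3 lies on chr10:86300372-86349506 (plus strand) and shares 1733 exon bases with Syn3, a gene on the opposite strand that had at most 11.6 normalised counts. No source used here says whether the counting used strand. The 250 bases before the start site are shown for the 3 inhibitors, from RefSeq on GRCm38.p6, because Yap1 acts on genes through the DNA-binding TEAD factors. The gene bounds above are GENCODE's, whose outermost start lies upstream of the RefSeq start for Timp2 and Timp3, so these windows lie wholly (Timp2) or partly (Timp3) inside those bounds. They were searched on both strands for the TEAD core GGAATG, and capitals mark a match.
Timp1, chrX:20869916-20870165, plus strand: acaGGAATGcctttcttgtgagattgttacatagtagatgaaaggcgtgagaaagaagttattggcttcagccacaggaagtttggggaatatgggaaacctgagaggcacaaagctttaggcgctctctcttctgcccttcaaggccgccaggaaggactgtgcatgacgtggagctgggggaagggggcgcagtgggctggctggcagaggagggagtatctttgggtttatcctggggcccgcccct
Timp2, chr11:118355412-118355661, minus strand: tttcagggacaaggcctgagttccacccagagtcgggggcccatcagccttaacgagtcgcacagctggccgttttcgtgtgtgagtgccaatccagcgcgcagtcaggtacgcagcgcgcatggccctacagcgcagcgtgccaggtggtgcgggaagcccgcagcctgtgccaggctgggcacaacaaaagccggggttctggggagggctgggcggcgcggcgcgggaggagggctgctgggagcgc
Timp3, chr10:86300162-86300411, plus strand: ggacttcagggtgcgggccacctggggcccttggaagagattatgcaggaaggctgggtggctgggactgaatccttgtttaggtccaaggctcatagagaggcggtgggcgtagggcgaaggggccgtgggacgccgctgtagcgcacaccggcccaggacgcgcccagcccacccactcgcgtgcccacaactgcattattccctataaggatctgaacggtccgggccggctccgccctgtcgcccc
Timp1 held 1 match, 247 bases before its start, and Timp2 and Timp3 held none. Of 32851 promoter windows of the same length, 12.6% held this core. A match is a description of these letters, and its absence says nothing of binding. The search covered the 5 of 7 members with an entry, which were the 3 inhibitors, Mmp13 and Mmp14, and neither Mmp13 nor Mmp14 held the TEAD core. For the AP-1 motif TGANTCA, present in 6.75% of the windows, Mmp13 held a match 35 bases before its start, read on both strands, and the 4 other promoters held none.

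Timp3, the inhibitor that is bound to the extracellular matrix, had 6163, 6294, 4460.3 and 6819 normalised counts in YAP-deleted LYT006, LYT008, LYT013 and LYT016. It had 9185, 8621, 5869, 7663 and 8189.7 normalised counts in control LYT004, LYT005, LYT014, LYT015 and LYT017. The groups overlapped through control LYT014 alone, and the library labelled YAP-deleted LYT013 was the lowest of all. Timp3 averaged 5934 ± 1023 in the YAP-deleted libraries and 7906 ± 1268 in the control libraries (SD, n = 4 and 5), a ratio of means of 0.751. The difference was −0.41 ± 0.17 on the log2-like scale (SE, 95% interval −0.77 to −0.05). Limma gave p = 0.0296 before and 0.649 after adjustment over all 17203 genes, and an exact two-sided permutation test over the 126 regroupings of the libraries gave p = 0.0635, where 0.0159 is the smallest possible. The difference thus did not pass the adjusted test.

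Without LYT013 and LYT014, Timp3 averaged 6425.5 ± 347 normalised counts in 3 YAP-deleted libraries and 8415 ± 646 in 4 control libraries, and the groups did not overlap. The difference was −0.38 ± 0.10 (SE, 95% interval −0.61 to −0.16). Limma gave p = 0.00418 before and 0.533 after adjustment, and the exact permutation p was 0.0571, the smallest that 35 regroupings allow, so that test could not reach 0.05. By limma's p, Timp3 had rank 133 of 17203 genes in that comparison. The difference was −0.51 ± 0.10 (SE) within library codes 4 to 8, which hold 2 libraries of each group, and −0.37 ± 0.25 within codes 13 to 17, which hold LYT013 and LYT014. The labels do not call these ranges of codes batches.

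Timp2, the inhibitor that also joins Mmp14 in the complex that activates the Mmp2 precursor, had 12736, 13167, 11779.9 and 10471 normalised counts in YAP-deleted LYT006, LYT008, LYT013 and LYT016. It had 17036, 16039, 10763, 13794 and 13522.5 normalised counts in control LYT004, LYT005, LYT014, LYT015 and LYT017. As for Timp3, the library labelled control LYT014 lay among the YAP-deleted libraries, and the other control libraries lay above all of them. LYT013, whose Yap1 level was high, also lay below those other controls, so Timp2 did not separate by measured Yap1 level. Timp2 averaged 12038 ± 1195 in the YAP-deleted libraries and 14231 ± 2442 in the control libraries (SD), with a difference of −0.23 ± 0.16 (SE, limma adjusted p = 0.659, exact permutation p = 0.159). With the 7 libraries the difference was −0.32 ± 0.14 (SE, limma p = 0.0488, adjusted p = 0.789, exact permutation p = 0.0571). The highest YAP-deleted value in that comparison was 13167 and the lowest control value 13522.5, a gap smaller than the SD within either group (1448 and 1715). Within library codes 4 to 8 the difference was −0.35 ± 0.11 (SE), and within codes 13 to 17 it was −0.18 ± 0.21.

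Timp1, an inhibitor known to be induced in activated stellate cells, was the most variable of the abundant members. Its coefficient of variation over the 9 libraries was 37.5%, against 16.6% for Timp2, 18.1% for Mmp14, 21.5% for Timp3 and 26.1% for Mmp2. The median over the 8602 tested genes at or above the median level was 17.1%. Timp1 had 327, 496, 537 and 311 normalised counts in YAP-deleted LYT006, LYT008, LYT013 and LYT016, and 621, 705, 646, 315 and 226 in control LYT004, LYT005, LYT014, LYT015 and LYT017. The control libraries thus reached beyond the YAP-deleted range on both sides. The difference was −0.16 ± 0.30 (SE, limma adjusted p = 0.858, exact permutation p = 0.651) with 9 libraries and −0.17 ± 0.34 with 7 (limma adjusted p = 0.961). Its sign was opposite in the ranges of library codes, at −0.64 ± 0.21 within codes 4 to 8 and 0.16 ± 0.40 within codes 13 to 17, so no direction is drawn for Timp1.

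Markers of cycling cells varied alongside Timp1. The summed level of 18 cell cycle genes was 2425, 21539.8, 3099 and 2084 normalised counts in YAP-deleted LYT006, LYT008, LYT013 and LYT016, and 23324, 31602, 7982, 2369 and 2183.5 in control LYT004, LYT005, LYT014, LYT015 and LYT017. The libraries with the highest sums (LYT008, LYT004, LYT005 and LYT014) all had at least 496 Timp1 counts, but so did LYT013, whose sum was low. With the mean of this list as a term in the model, the Timp1 difference was 0.07 ± 0.22 (SE) with 9 libraries and 0.01 ± 0.13 with 7. The stellate activation list, which holds Acta2 and collagen genes, was also highest in control LYT004 and LYT005, at 191155 to 513734 normalised counts in the YAP-deleted libraries against 245101 to 750577 in the control libraries. Most of these sums came from collagens: of 741004 in LYT004, Col1a1, Col1a2 and Col3a1 had 168600.5, 172758 and 372755.5, and Acta2 4427. Acta2, Lox and Tnc were highest in LYT004 or LYT005. Tagln and Myl9, also listed, were highest in LYT013 (20182 and 7341), where the list summed to 224396. Both lists were highest in LYT004, LYT005 and LYT008, all within codes 4 to 8, so cycling and activation were not separated there. Library code did not match either list throughout. LYT006, also within codes 4 to 8, had a cell cycle sum of 2425, an activation sum of 281515.6 and 327.3 Timp1 counts. LYT014, within codes 13 to 17, had a cell cycle sum of 7982 and 646.2 Timp1 counts. LYT013, in the same range of codes, had 537.1 Timp1 counts with a cell cycle sum of 3099. The part of cycling, activation or library code in the Timp1 values was not tested.

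**Figure D2:**
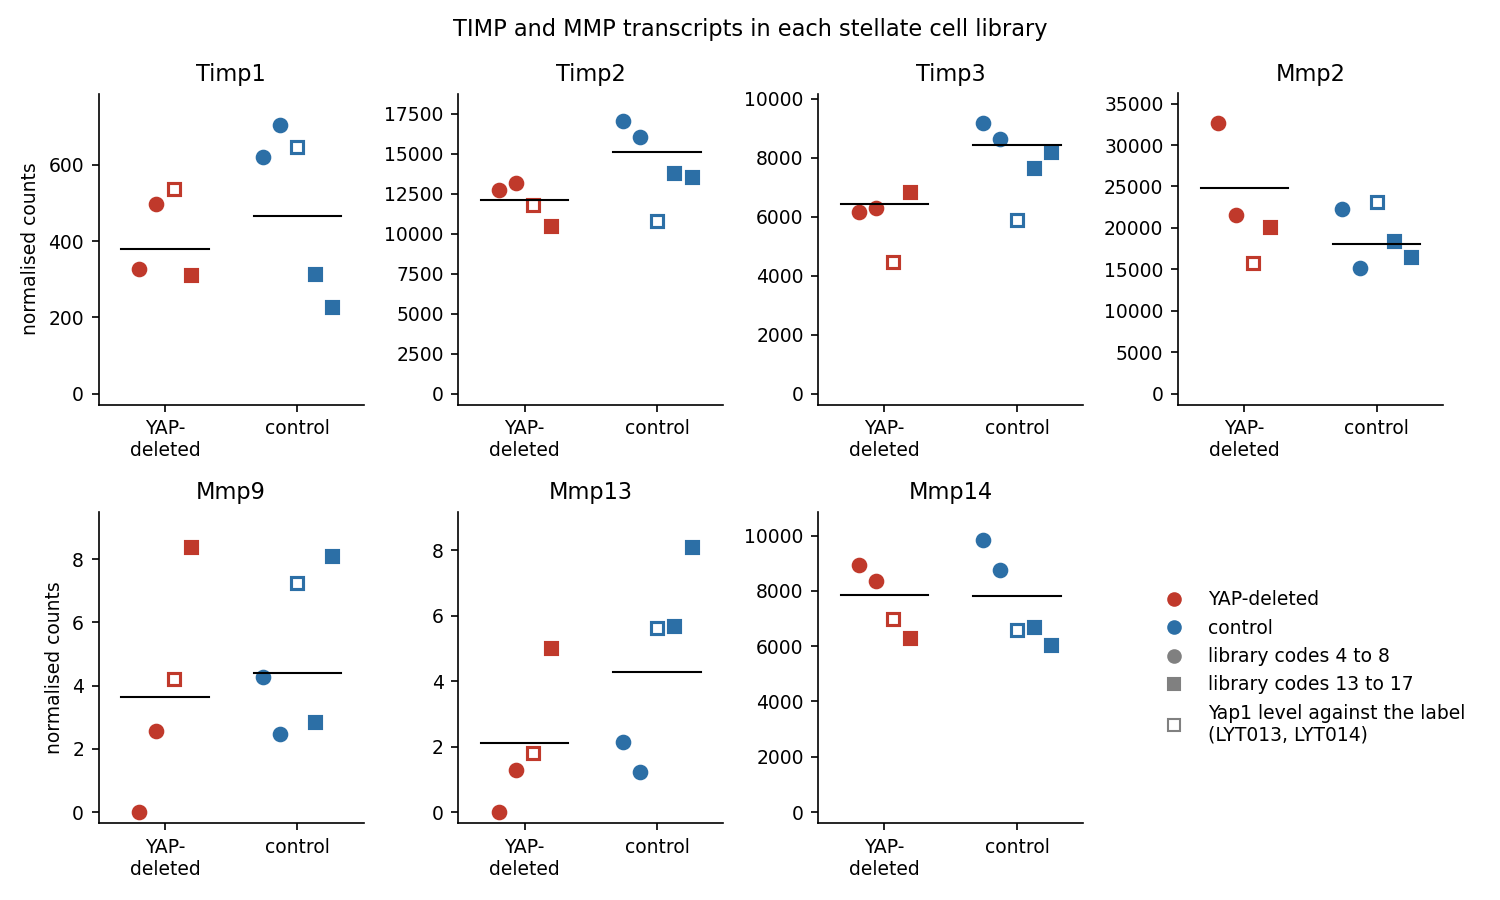
Normalised counts of each member in the YAP-deleted libraries (red) and the control libraries (blue), with circles for library codes 4 to 8, squares for codes 13 to 17 and open squares for LYT013 and LYT014. Black lines are the means of the 7 libraries without LYT013 and LYT014. For Timp2 and Timp3 the filled red symbols all lie below the filled blue ones, whereas both colours overlap in the 5 other panels.

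Among the proteinases, Mmp2, which cuts denatured and basement membrane collagen, had the highest level per kb of the 4 MMP members in every library. It had 32659, 21551, 15792 and 20095.5 normalised counts in YAP-deleted LYT006, LYT008, LYT013 and LYT016, and 22333.5, 15124, 23159.5, 18369 and 16490.0 in control LYT004, LYT005, LYT014, LYT015 and LYT017. YAP-deleted LYT006 stood above all others, and the remaining libraries of both groups covered a like range. Mmp2 averaged 22524.5 ± 7185 in the YAP-deleted libraries and 19095 ± 3539 in the control libraries (SD), with a difference of 0.21 ± 0.22 (SE, limma adjusted p = 0.758, exact permutation p = 0.444). Leaving out LYT006 brought this difference to 0.01. With the 7 libraries the difference was 0.43 ± 0.21 (SE, 95% interval −0.04 to 0.91, limma adjusted p = 0.79, exact permutation p = 0.171). Leaving out LYT006 as well gave 0.22, so in both sets the size of the difference rested on that library. Within library codes 4 to 8 the difference was 0.53 ± 0.31, and within codes 13 to 17 it had the other sign, at −0.10 ± 0.25. Mmp2 lies on chr8:92827291-92853420 (plus strand) and shares no exon bases with another annotated gene.

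Mmp14, the membrane-anchored collagenase that activates the Mmp2 precursor, lies on chr14:54431612-54445364 (plus strand). It had 8941, 8370.5, 6975 and 6292 normalised counts in YAP-deleted LYT006, LYT008, LYT013 and LYT016, and 9857, 8739, 6580.0, 6704 and 6026.5 in control LYT004, LYT005, LYT014, LYT015 and LYT017. The groups overlapped throughout, and the difference was 0.02 ± 0.17 (SE, 95% interval −0.36 to 0.40, limma adjusted p = 0.973). Differences within that interval were not resolved by these libraries. The Mmp14 values did separate by library code: the 4 libraries with codes 4 to 8 had 8370.5 to 9857 normalised counts and the 5 with codes 13 to 17 had 6026.5 to 6975, with no overlap. Over all tested genes, 2.99% lay wholly higher in codes 4 to 8 than in codes 13 to 17 and 2.92% wholly lower. Mmp14 was the only 1 of the 7 members separated in this way. Markers of other cell types separated by the same split. Of the 8 portal fibroblast and mesothelial genes, Cd34 (1182 to 1311.5 against 130.2 to 894), Dpt and Eln were wholly higher in codes 4 to 8, and Pi16 was wholly lower. Of the 12 macrophage and Kupffer cell genes, 7 were wholly lower in codes 4 to 8. Of the 8 endothelial genes tested, Stab2, Clec4g, Kdr and Oit3 were wholly lower, while Pecam1, Stab1, Lyve1 and Cdh5 overlapped. The portal list summed to 3897 to 10966 normalised counts in the YAP-deleted libraries and 4363 to 11911 in the control libraries. Most of these sums came from Eln, Dpt and Cd34. Thy1, Gli1, Msln and Upk3b overlapped between the code ranges and had at most 65.2, 74.0, 35.0 and 32.3 normalised counts, and Pi16 at most 12.1. Whether portal or mesothelial cells were present was not tested, nor was the part of any other cell type in the Mmp14 values.

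Mmp9 (chr2:164940780-164955850, plus strand) and Mmp13 (chr9:7272514-7283331, plus strand) were represented by at most 10 counts per library. Mmp9 had 0, 2, 7 and 10 counts in YAP-deleted LYT006, LYT008, LYT013 and LYT016, and 4, 2, 9, 3 and 6 in control LYT004, LYT005, LYT014, LYT015 and LYT017. These sums of 19 and 24 counts correspond to 0.222 CPM (counts relative to the library total) (95% Poisson interval 0.133 to 0.346) in the YAP-deleted libraries and 0.269 CPM (0.172 to 0.4) in the control libraries, intervals that cover counting error only. Mmp13 had 0, 1, 3 and 6 counts in the same YAP-deleted libraries and 2, 1, 7, 6 and 6 in the same control libraries. Its sum of 10 corresponds to 0.117 CPM (0.0559 to 0.215) in the YAP-deleted libraries and its sum of 22 to 0.247 CPM (0.155 to 0.373) in the control libraries. The intervals overlapped for both genes, and in LYT006 a count of 0 allows up to 3 counts, or 0.183 CPM, of either transcript (the upper Poisson limit is 0.225 CPM). The differences were −0.14 ± 0.15 for Mmp9 and −0.22 ± 0.13 for Mmp13 (SE, limma adjusted p = 0.757 and 0.652, exact permutation p = 0.508 and 0.143), on a scale that compresses changes at low counts. A difference between the groups was not detectable at this depth.

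Markers of the leukocytes known for these proteinases were measured in the same libraries. The 12 macrophage and Kupffer cell genes summed to 1107, 1054, 1812 and 2608 normalised counts in YAP-deleted LYT006, LYT008, LYT013 and LYT016, and to 1039, 718, 1593.5, 1571 and 1934 in control LYT004, LYT005, LYT014, LYT015 and LYT017. LYT016, with the highest sum, also had the highest Mmp9 level, 8.37 normalised counts, and LYT017, with the next highest sum, had the highest Mmp13 level, 8.08. The orders did not match throughout: LYT013, with the next sum, had an Mmp13 level of 1.8, below the 2.14 of LYT004, and all these levels rest on at most 10 counts. Of the 11 neutrophil genes, 5 were tested, and the list summed to 11.5 to 29.4 in the YAP-deleted libraries and 3.78 to 20.2 in the control libraries. The neutrophil genes S100a8, S100a9 and Ly6g, not among those 5, had at most 3.0, 3.0 and 3.6 normalised counts in any library. The 5 tested genes reached 10.78 for Csf3r (in LYT017), 9.25 for Cxcr2 (in LYT006), 6.60 for Elane (in LYT013), 4.83 for Ltf and 1.67 for Mpo. The highest of these were in the range of Mmp9 and Mmp13 themselves. Whether neutrophils were present was not tested. With the mean of the macrophage list as a term in the model, the differences were −0.20 ± 0.12 for Mmp9 and −0.29 ± 0.10 for Mmp13 (SE, 9 libraries), and neither passed the adjusted limma test.

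Limma called 0 of the 7 members with all 9 libraries as labelled, where it called 0.0% of all tested genes, and 0 of the 7 without LYT013 and LYT014, where it called 0.0698% (12 genes). Before adjustment, 1242 genes had p under 0.05 by limma with 9 libraries and 1319 by limma voom, which also called 0 genes after adjustment. With 7 libraries these numbers were 1082 and 1080, and voom called 7 genes. As labelled, 0 members lay wholly below or wholly above the control libraries, against 1.15% and 1.69% of all tested genes. With the 7 libraries, Timp2 and Timp3 lay wholly below the control libraries (2 of 7 members), against 3.48% of all tested genes, and 0 members lay wholly above, against 3.84%. The median difference of the members was −0.16 with 9 libraries and −0.17 with 7, with 5 of 7 negative in both. Over all tested genes the medians were −0.005 and −0.006, and 50.9% and 51.4% of the genes were negative.

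**Figure D3:**
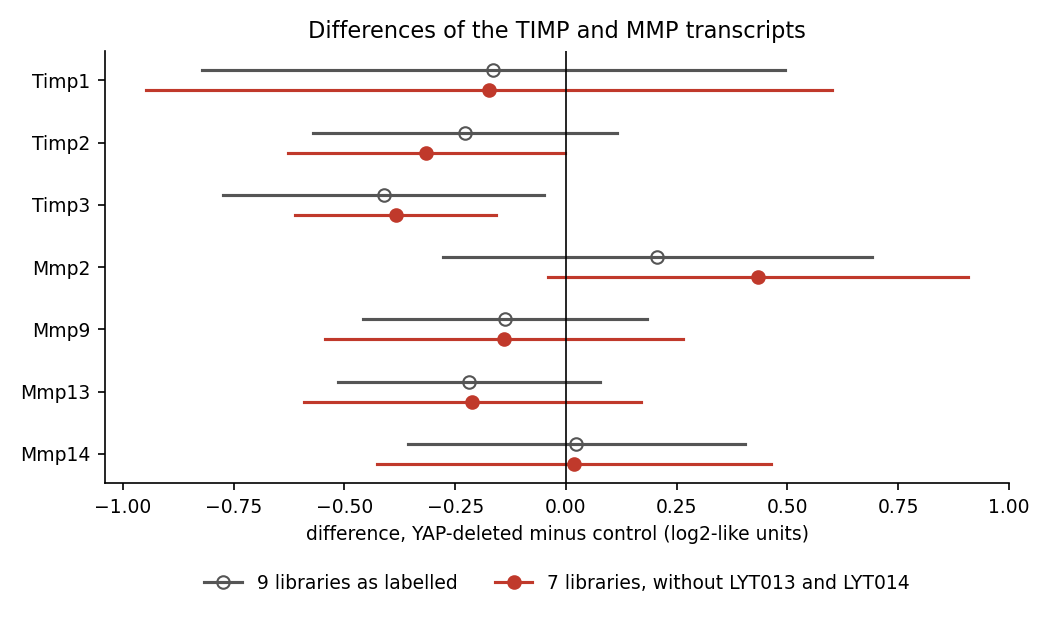
Difference of each member, YAP-deleted minus control, in log2-like units, with 95% intervals from limma. Open grey symbols are the 9 libraries as labelled and filled red symbols the 7 libraries without LYT013 and LYT014, and the intervals that lie wholly below 0, before any adjustment for the number of genes tested, are those of Timp3 in both sets and of Timp2 with 7 libraries (−0.63 to −0.002).

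Set against each other, proteinase and inhibitor transcripts had a higher ratio in the 3 YAP-deleted libraries than in the 4 control libraries that followed their Yap1 label. The sum of Mmp2 and Mmp14 per kb over the sum of Timp1, Timp2 and Timp3 per kb was 2.75, 1.88, 1.65 and 1.94 in YAP-deleted LYT006, LYT008, LYT013 and LYT016. It was 1.53, 1.19, 2.06, 1.5 and 1.36 in control LYT004, LYT005, LYT014, LYT015 and LYT017. LYT014, labelled control, had the highest ratio after LYT006, and LYT013, labelled YAP-deleted, had the lowest of its group, above the 4 other controls. By measured Yap1 level, the libraries low in Yap1 (LYT006, LYT008, LYT014 and LYT016) had ratios of 1.88 to 2.75. Those high in Yap1 had 1.19 to 1.65, with no overlap. The inhibitor sum was 5109.6, 5445, 4729 and 4619.7 per kb in the YAP-deleted libraries and 7241, 6948, 4877, 5698 and 5636.5 in the control libraries, in the same order, and it overlapped through LYT014. The proteinase sum was 14055, 10226, 7817.5 and 8952 per kb in the YAP-deleted libraries and 11053, 8280.1, 10059, 8550.3 and 7679 in the control libraries, with overlap beyond LYT013 and LYT014. The ratio was formed after its parts had been seen and carries no test, and transcripts give neither the amount nor the activity of the proteins.

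**Figure D4:**
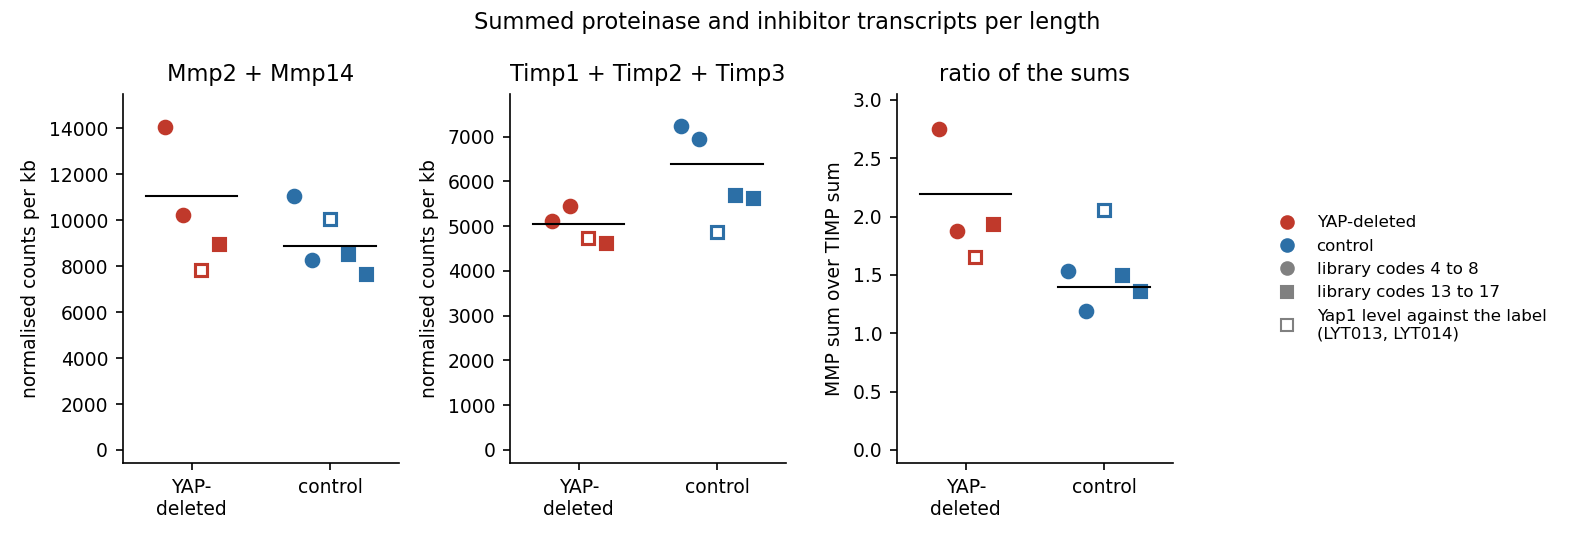
Sum of Mmp2 and Mmp14 (left) and of Timp1, Timp2 and Timp3 (middle), in normalised counts per kb, and their ratio (right), in the YAP-deleted libraries (red) and the control libraries (blue). Black lines are the means of the 7 libraries without LYT013 and LYT014, which are drawn as open squares, and the ratio ran from 1.88 to 2.75 in the filled red symbols and from 1.19 to 1.53 in the filled blue ones.

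No other gene of the MMP family was called. Of 13 other soluble MMPs, 8 were tested, and Mmp1a, Mmp1b, Mmp7, Mmp20 and Mmp21 were too low. Limma called 0 of the 8, of which 7 were negative with 9 libraries (median difference −0.12), and 0 lay wholly on one side. Mmp11 (stromelysin-3), with the most counts, averaged 775.5 ± 144 normalised counts in the YAP-deleted libraries and 754 ± 104 in the control libraries, a difference of 0.03 ± 0.14 (SE, limma adjusted p = 0.958). Mmp19, a widely expressed soluble MMP, averaged 322 ± 189 in the YAP-deleted libraries and 429.9 ± 252 in the control libraries (difference −0.34 ± 0.44). The macrophage elastase Mmp12 averaged 57.9 ± 32.4 in the YAP-deleted libraries and 69.1 ± 6.85 in the control libraries (difference −0.21 ± 0.20). Mmp28, Mmp27 and the neutrophil collagenase Mmp8 had at most 43.8, 7.24 and 7.53 normalised counts in any library.

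All 6 other membrane-bound MMPs were tested and 0 were called, with 4 negative and a median difference of −0.03 with 9 libraries. Mmp23 had 649, 747, 1564 and 379.9 normalised counts in YAP-deleted LYT006, LYT008, LYT013 and LYT016, and 1483, 1355.5, 596, 811 and 807 in control LYT004, LYT005, LYT014, LYT015 and LYT017. Of its values, 1564 in LYT013 was above every control and 596 in LYT014 below every other control. By measured Yap1 level Mmp23 separated, at 379.9 to 747 in the libraries low in Yap1 and 807 to 1564 in those high in it. How many of all tested genes separated in that way was not counted. Without LYT013 and LYT014, Mmp23 lay wholly below the controls, as 3.48% of all tested genes did. Its difference was then −0.84 ± 0.27 (SE, limma adjusted p = 0.643), against −0.35 ± 0.35 with all 9. Mmp15, a close relative of Mmp14, was the only family member wholly above the controls with 7 libraries, as 3.84% of all tested genes were. It had 594.5, 693 and 553.9 normalised counts in YAP-deleted LYT006, LYT008 and LYT016. In control LYT004, LYT005, LYT015 and LYT017 it had 384.6, 500.6, 434 and 553.6. Control LYT017 all but met YAP-deleted LYT016 there, and the difference was 0.36 ± 0.13 (SE, limma adjusted p = 0.727). Mmp15 had 458.5 in LYT013 and 558.5 in LYT014, so it too separated by measured Yap1 level. That separation was only as wide as the step from 553.6 in LYT017 to 553.9 in LYT016. Mmp17 averaged 786 ± 236 in the YAP-deleted libraries and 1005 ± 362 in the control libraries (difference −0.32 ± 0.27), and Mmp16, Mmp25 and Mmp24 had at most 17.9, 3.69 and 1.35 normalised counts.

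Of 7 other genes that restrain MMPs, promote their clearance or act on procollagen, 6 were tested and 0 were called, with 5 negative and a median of −0.16 with 9 libraries. Timp4, the remaining inhibitor of the family, reached at most 1.2 normalised counts. Reck, a membrane-anchored MMP inhibitor, averaged 2944 ± 823 in the YAP-deleted libraries and 3092 ± 299 in the control libraries, a difference of −0.11 ± 0.19 (SE) with 9 libraries that turned to 0.11 ± 0.12 with 7. Thbs2, which promotes the uptake of Mmp2, averaged 8898 ± 2972 in the YAP-deleted libraries and 9934 ± 1294 in the control libraries (difference −0.23 ± 0.24, but 0.04 ± 0.14 with 7 libraries). Pcolce, an enhancer of procollagen processing, averaged 13450.0 ± 4244 in the YAP-deleted libraries and 12273 ± 2505 in the control libraries (difference 0.10 ± 0.22, but −0.18 ± 0.18 with 7 libraries). Tfpi2, a serine protease inhibitor, differed by −0.31 ± 0.18, while the general protease inhibitors Pzp and A2m had at most 73.8 and 3.35 normalised counts.

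The 15 genes of precursor activation, the plasminogen system, docking and clearance also had 0 calls, with 11 negative with 9 libraries (median −0.11) and 7 negative with 7 (median 0.01). Lrp1, the endocytic receptor that clears MMPs and TIMPs, averaged 57307 ± 21083 normalised counts in the YAP-deleted libraries and 56470.4 ± 4214 in the control libraries. Its larger spread in the YAP-deleted group included a low value of 30064 in LYT013. The tissue plasminogen activator Plat differed by −0.38 ± 0.43 (SE) with 9 libraries, but by 0.05 ± 0.46 with 7. Lrp1 also turned, from a difference of −0.06 ± 0.27 with 9 libraries to 0.20 ± 0.21 with 7. Bsg, an inducer of MMPs on the cell surface, differed by 0.29 ± 0.17 with 9 libraries and 0.07 ± 0.11 with 7. The integrin subunits Itgav and Itgb3, which can dock Mmp2, differed by −0.41 ± 0.20 and 0.05 ± 0.24 with 9 libraries (limma adjusted p = 0.649 and 0.953), and by −0.17 ± 0.09 and 0.17 ± 0.27 with 7.

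All 7 collagen genes listed as substrates had negative differences in both sets (medians −0.45 and −0.38), with 0 calls and limma adjusted p-values of 0.653 to 0.758 with 9 libraries. Among the fibrillar collagens, Col1a1 differed by −0.76 ± 0.64, Col1a2 by −0.53 ± 0.42, Col3a1 by −0.45 ± 0.45 and Col5a1 by −0.18 ± 0.20 (SE). The basement membrane chains Col4a1 and Col4a2 differed by −0.26 ± 0.24 and −0.24 ± 0.23. Col1a1 had 21368 to 89822 normalised counts in the YAP-deleted libraries and 23711 to 168600.5 in the control libraries, so the groups overlapped over much of that range. Of 7 genes of collagen uptake and intracellular breakdown, 0 were called, and the median differences were −0.02 and 0.004. The collagenolytic cathepsin Ctsk differed by −0.23 ± 0.17 with 9 libraries and lay wholly below the controls with 7 (−0.43 ± 0.14, limma adjusted p = 0.647), as 3.48% of all tested genes did. With 9 libraries, Mrc2, the collagen uptake receptor, differed by −0.23 ± 0.36, and the cathepsins Ctsb, Ctsl and Ctss by 0.06 ± 0.13, 0.11 ± 0.19 and −0.02 ± 0.19. The prolyl peptidase Prep differed by 0.08 ± 0.12. With 7 libraries the differences of Mrc2, Ctsl and Ctss had the other sign (0.004, −0.07 and 0.11).

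For each member, the 3 genes with the most similar pattern over the 9 libraries were sought among the 8602 tested genes at or above the median level, by Pearson's r of the log2-like values. These are the highest of many values, over libraries that share differences in depth, library code and cell cycle genes, and they carry no p. Timp1 was most like Sdc4 (a syndecan, r = 0.973), Stk17b (a kinase, r = 0.919) and Tubb6 (a tubulin, r = 0.918). Sdc4 had 2505, 3715, 3405 and 2207 normalised counts in YAP-deleted LYT006, LYT008, LYT013 and LYT016, and 3635, 3816, 4078, 2351 and 1847 in control LYT004, LYT005, LYT014, LYT015 and LYT017, so that like Timp1 it was low in LYT015 and LYT017 among the controls. Timp2 was most like Ddr1 (a collagen receptor kinase, r = 0.95), Plxnb2 (a semaphorin receptor, r = 0.95) and Grb10 (a signalling adaptor, r = 0.946). Timp3 was most like Mllt3 (a chromatin reader, r = 0.959), Ptprj (a receptor phosphatase, r = 0.956) and Lpgat1 (a lipid acyltransferase, r = 0.954).

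Mmp2 was most like Slc25a12 (a mitochondrial carrier, r = 0.967), Slc6a9 (a glycine transporter, r = 0.951) and Ppp1r13b (a p53-binding protein, r = 0.945), and in all 3 of them LYT006 was the highest library, as it was for Mmp2. Mmp14 was most like Foxp4 (a forkhead factor, r = 0.965), Col6a2 (a collagen VI chain, r = 0.964) and Sardh (sarcosine dehydrogenase, r = 0.949). For Mmp9 the genes were Stambp, Recql and Usp40 (r = 0.915, 0.905 and 0.875) and for Mmp13 Eif2ak2, Zc3h7a and Taok3 (r = 0.935, 0.929 and 0.907), but these rest on at most 10 counts per library of Mmp9 or Mmp13.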

How the data were processed

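The authors deposited variance-stabilised, log2-like values, 1 log2 value per gene name and library. Per the labels' protocols, libraries were made by poly-A selection or ribosomal depletion, without saying which library had which. The submitters' processing notes name, with no roles, the tools sleuth, kallisto 0.44.0 and bcl2fastq 2.20 and the builds mm10, GRCm38 and GRCh38. How the values were made is otherwise not given in the sources used. The column headed LYT013.1 was used for LYT013.

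Undoing the inverse hyperbolic sine form of the values gave whole counts within 0.1 for 100.0% of values (leaving out the lowest, 4.96), with total counts of 14052502 to 31816055. Normalised counts are these counts divided by size factors. The 17203 genes that exceeded the lowest value in 4 or more libraries were fitted on the deposited values with limma 3.58.1 (R 4.3.3; trend, two-sided, Benjamini-Hochberg threshold 0.05). Because the deposited unit was not counts, no count model was the main test, and limma voom on the recovered counts was an alternative. Differences are YAP-deleted minus control. The procedure was tested on simulated data. Transcript lengths came from GENCODE M21 on GRCm38 and promoters from RefSeq.

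The members and lists were chosen with earlier results of these data known. Named genes are the members, Yap1, up to 6 genes per list with the highest mean level, and the 3 genes most alike to each member; 1 listed gene is not reported here. Alternatives covered filters, scaling, transformation, model, moderation, weights, covariates, library code ranges and the omission of each library; combining them with the omission of LYT013 and LYT014 was chosen after seeing the data.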

Additional observations from a re-analysis of the deposited data

Results flagged for a closer look

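In groups of 4 to 5 libraries, 88 groups of 44 genes were searched for a library far from the others of its group. Chance marks about 1 in 20 such groups, and 5 were marked here. Yap1 had 2537 normalised counts in the library labelled YAP-deleted LYT013, against 644 to 649.9 in the others of that label. Yap1 had 619.7 normalised counts in the library labelled control LYT014, against 2910.0 to 3663 in the other controls. Mmp11 had 562 normalised counts in YAP-deleted LYT016, against 814 to 865 in the others of its group. Mmp27 had 0 in control LYT017, against 3.69 to 7.24 in the other controls, and A2m had 3.35 in YAP-deleted LYT016 and 0 in the 3 others, values that rest on a few counts. None of the 7 MMP and TIMP members was marked in this way.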

How the results depend on the processing

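Timp2, Timp3 and Mmp13 kept a negative difference under every alternative run, and no alternative brought any member past the adjusted threshold. Timp3 ranged from −0.51 to −0.28 with 9 libraries and from −0.43 to −0.34 with 7, with limma adjusted p-values of 0.422 to 0.836 and 0.159 to 0.999. With 9 libraries, Timp1 was 0.16 within codes 13 to 17 and 0.07 with the cell cycle term. Within codes 13 to 17, Mmp2 was −0.10 and Mmp9 0.017. Mmp14 was −0.053 under quantile normalisation, −0.023 with the code range as a term and −0.10 within codes 4 to 8. Leaving out 1 library gave −0.38 (without LYT017) to −0.03 (without LYT005) for Timp1, −0.31 to −0.12 (without LYT006) for Mmp13, −0.24 to 0.002 for Mmp9 and −0.056 to 0.12 for Mmp14. With 7 libraries, Timp1 was 0.012 with the cell cycle term, and Mmp14 was −0.024 under quantile normalisation and −0.066 with the code range as a term. Leaving out 1 of the 7 gave −0.43 to 0.045 for Timp1, −0.35 to −0.07 (without LYT006) for Mmp13, −0.32 to 0.052 for Mmp9 and −0.10 to 0.17 for Mmp14. The causes were not tested. With 9 libraries limma called 1 gene higher within codes 4 to 8, and 3 higher and 9 lower without LYT013 and LYT014. With those 7, it called 7 higher and 18 lower with the code range as a term, 11 and 25 with the cell cycle term, and 9 and 17 with the macrophage term, while voom called 5 lower. Leaving out 1 of the 7 gave 1 to 3 higher and 1 to 8 lower, with 1 and 1 without LYT006, 1 and 5 without LYT004, 5 lower without LYT008, and 4 lower without LYT016 or LYT017. Mmp9 and Mmp13 have no value where a gene had to be detected in every library, since LYT006 had 0. No paired analysis was possible because the library codes give the groups no shared replicate numbers. The group sizes of 4 and 5 limit what could be resolved, and the counts limit Mmp9 and Mmp13.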

Other observations

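Besides Mmp14, 2 of the 21 MMP and TIMP family genes tested lay wholly higher in library codes 4 to 8 than in codes 13 to 17, and 0 lay wholly lower, against 2.99% and 2.92% of all tested genes. Mmp19 had 378 to 711.5 normalised counts in codes 4 to 8 and 119 to 368 in codes 13 to 17, and Mmp28 had 22.1 to 43.8 and 5.86 to 12.1. The Kupffer cell gene Clec4f, picked after its values were seen, was wholly lower in codes 4 to 8, at 4.92 to 30.1 normalised counts, than in codes 13 to 17, at 47.3 to 118. Both ranges of codes hold libraries of both labels, and the labels do not say what the codes stand for.

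Timp1 made up 10.8%, 15.8%, 19.2% and 12.5% of the Timp2 level per kb in YAP-deleted LYT006, LYT008, LYT013 and LYT016. It made up 15.3%, 18.5%, 25.2%, 9.58% and 7.03% in control LYT004, LYT005, LYT014, LYT015 and LYT017. The libraries whose Yap1 level went against their labels, LYT013 and LYT014, thus had the highest share of their group, and LYT015 and LYT017 the lowest of all 9.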
